A study of Mus musculus with 38 samples.

Results

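The genes of DNA replication licensing and of the replication fork were followed across 10 groups of mouse kidney libraries. They were chosen by name from textbook knowledge of replication, with earlier results of these data known. All 44 were among the 21705 genes of the table. RNA was sequenced in 38 libraries, of which 24 came from tumour-derived cells, 9 from kidney tumours and 5 from normal kidney. MYC mice carried Ksp-rtTA and Tet-O-MYC, which drive a Dox-inducible MYC transgene in renal tubule cells from the promoter of kidney-specific cadherin. VM mice also carried floxed Vhl and a tamoxifen-inducible Cre under the same promoter (KspCreERT2), and VIM mice added a germline loss of Ink4a/Arf, the Cdkn2a locus. Each genotype was represented in culture by 1 line from a primary tumour: MYC-2983, VM-3055 and VIM-3039. The lines were kept in 2 µg per ml Dox and then plated with Dox or without it for 24 h, with 4 libraries for each line and treatment. The 3 MYC tumour libraries came from mouse 2917 (replicate 1) and mouse 2983 (replicates 2 and 3), while the 3 VM and the 3 VIM libraries each came from 3 mice, all labelled as kept on Dox. The 5 wild-type kidneys were labelled vehicle, 2 of them B6 and 3 KT, a name whose meaning is not given in the sources used here. No age at collection is given in those sources. Line 3055 shares its number with a VM tumour (replicate 2) and line 2983 with 2 MYC tumour libraries.

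Replication origins are licensed when the origin recognition complex (ORC), Cdc6 and Cdt1 load the ring-shaped Mcm2 to Mcm7 helicase on DNA, a step that geminin (Gmnn) blocks outside G1. The kinase Cdc7 with Dbf4, the GINS complex and Mcm10 then turn the helicase on, after which primase and the polymerases copy the strands, replication factor C (RFC) loads the sliding clamp PCNA, and RPA, Fen1, Lig1 and the histone chaperone CAF-1 protect, join and package the new DNA. Most of these genes are known E2F targets that cycling cells transcribe, and most tubule cells of the adult kidney rest outside the cell cycle.

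Values are in units of the deposited signal, RSEM gene estimates which the authors scaled to an upper quartile of 1000 in each library, and they are not divided by gene length. The libraries held an estimated 8.22 to 36.6 M reads, so that 3 reads, taken here as the floor, were worth 1.16 to 5.65 units. These floors cover counting error only. 2 members, Cdc6 and Pole, had a kidney library at or under the floor, and no member did in the cell and tumour groups. The labels do not say whether libraries of 1 line came from separate cultures, so p-values for cells measure only the spread between these libraries.

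The engineered genes were read in every library to check the labels. Vhl read 433 to 543 units in MYC-2983 cells but 10.3 to 38.8 in VM-3055 and 8.32 to 24.9 in VIM-3039 cells. In tissue, Vhl stood at 559.7, 471 and 468 units in MYC, 79.9, 40.2 and 40.7 in VM and 226, 219 and 312 in VIM tumours, against 612 to 772 in kidney. Cdkn2a read 24.9 to 40.8 units in VIM-3039 cells, under the 3056 to 5701 of the other lines. The tumours held 108, 2872 and 59.3 units of Cdkn2a in MYC, 4298, 4347 and 3392 in VM and 33.9, 30.1 and 95.5 in VIM libraries, against 0 to 3.80 in kidney; the MYC tumour libraries of mouse 2983 lay far apart. VIM tumours lay above kidney and overlapped MYC tumours, so in tissue Cdkn2a checks the VIM label against VM tumours only. Myc was lower in the libraries labelled Dox, at 651 to 699 units against 1764 to 1868 in MYC-2983, 338 to 413 against 1308 to 1406 in VM-3055 and 359.8 to 432 against 1384 to 1532 in VIM-3039 cells. Whether reads of the transgene were assigned to Myc is not given in the sources used here, so this gene does not check the Dox labels, and directions with Dox below are those of the libraries labelled Dox. By other assays the authors found MYC protein and the growth of these lines to depend on Dox, and the proliferation markers below were higher in the libraries labelled Dox.

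Summed over the 44 members, the signal differed between cells, tumours and kidney. The sum was 79718, 79895, 81442 and 80918 units in MYC-2983 cells with Dox and 52784, 51395, 53179 and 53397 without. VM-3055 cells reached 65942, 64313, 65697 and 64817 units with Dox and 34681, 36926, 34452 and 35490.0 without. VIM-3039 cells reached 65307, 65301, 64926 and 64678 units with Dox and 30952, 31091, 31354 and 31038 without. Every line was higher with Dox than without, and with Dox the VM-3055 and VIM-3039 ranges overlapped, under that of MYC-2983. MYC tumours summed to 33630.3, 35325 and 45490.3 units, VM tumours to 19295, 32566 and 40102 and VIM tumours to 25819.9, 34987 and 28336. Normal kidney summed to 11224, 10303, 10653, 10605 and 9789 units, or 0.0512% to 0.0549% of each library's total. The ranges of the tumour types overlapped, every tumour lay above every kidney, and every tumour lay below every library of cells with Dox. In bulk samples such as these, fewer cycling cells and less RNA of these genes per cell cannot be told apart.

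Proliferation markers, like the members, were higher with Dox within each line. The 8 markers (Mki67, Cdk1, Ccnb1, Ccna2, Bub1, Plk1, Aurkb and Birc5) summed to 25483, 26202, 25841 and 26256 units in MYC-2983 cells with Dox and 15874, 15031, 15699 and 15939 without. Their sum was 27660.3, 27408, 28172 and 27097 units in VM-3055 cells with Dox and 13239.7, 14734, 12838 and 13765 without. It was 21223, 20948, 20752 and 20906 units in VIM-3039 cells with Dox and 8944, 9839, 9234 and 9184 without. With Dox the markers were highest in VM-3055 cells and lowest in VIM-3039, whereas the sums of members overlapped in these lines and were highest in MYC-2983; without Dox both sums were highest in MYC-2983 and lowest in VIM-3039. MYC tumours held 8591, 10009 and 20313 units of these markers, VM tumours 7532, 11073 and 15884 and VIM tumours 8464, 12729 and 7085, against 249, 200.5, 224, 331 and 231 in kidney. Ccna2 was the most abundant marker in MYC-2983 cells and Mki67 in the other groups. The part of cell division in the differences between members was not tested.

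With Dox, all members but Orc4 in MYC-2983 cells were higher by limma adjusted p, and the fold limit was passed most often in VIM-3039. limma was fitted on log2(value + 1) over all genes above 0 in at least 4 libraries, and passing required both an absolute log2 change over 1 and an adjusted p under 0.05; changes on this scale understate those of low genes. In MYC-2983 cells 4 of the 44 members passed as higher (Gins1, Mcm10, Pold2 and Rpa2), against 4.49% of the 15104 genes tested, and 0 passed as lower, against 14.99%. By adjusted p alone, 43 members were higher in MYC-2983 cells and 0 lower, where 31.5% of all genes were higher and 44.03% lower; the exception was Orc4. In VM-3055 cells 14 members passed as higher and 0 as lower, against 5.92% and 18.9% of 14319 genes. By adjusted p alone all 44 were higher in VM-3055 cells, where 26.1% of all genes were higher and 47.7% lower. In VIM-3039 cells 24 members passed as higher and 0 as lower, against 7.67% and 16.6% of 13998 genes. By adjusted p alone all 44 were higher in VIM-3039 cells, where 31.1% of all genes were higher and 44.2% lower. The counts of 0 lower members came from limma and were also 0 at an unadjusted p under 0.05 and by limma voom.

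The median log2 change of the members with Dox was 0.63 (range -0.03 to 1.22) in MYC-2983, 0.83 (0.25 to 1.71) in VM-3055 and 1.04 (0.20 to 1.90) in VIM-3039 cells, while that of all genes tested was -0.13, -0.26 and -0.15. TMM rescaling moved the median of all genes to -0.02, -0.06 and -0.02, and quantile normalization to 0.02, 0.00 and 0.00. Relative to the median of all genes, the members' median was 0.76, 1.08 and 1.19 as scaled by the authors, 0.77, 1.10 and 1.20 after TMM rescaling and 0.64, 0.93 and 1.04 after quantile normalization. With TMM rescaling the count in VM-3055 cells was 27, not 14, with 30 in VIM-3039 and 6 in MYC-2983 cells, where 9.16%, 10.2% and 5.67% of all genes then passed as higher. Of the 14 licensing genes, 0 passed in MYC-2983, 6 (VM-3055) and 8 (VIM-3039), with medians of 0.63, 0.93 and 1.15. The 8 genes grouped here as firing were Mcm10, Gins1 to Gins4, Cdc7, Dbf4 and Mcm8, which is outside the Mcm2 to Mcm7 ring. Of them, 2, 2 and 4 passed in these lines, with medians of 0.65, 0.79 and 0.91. Of the 6 clamp and clamp loader genes, 0, 2 and 3 passed, with medians of 0.61, 0.82 and 1.04. Of the 9 polymerase and primase genes, 1, 2 and 6 passed, with medians of 0.73, 0.83 and 1.15. Of the 7 genes of strand protection, joining and packaging, 1, 2 and 3 passed, with medians of 0.62, 0.62 and 0.97.

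**Figure D1:**
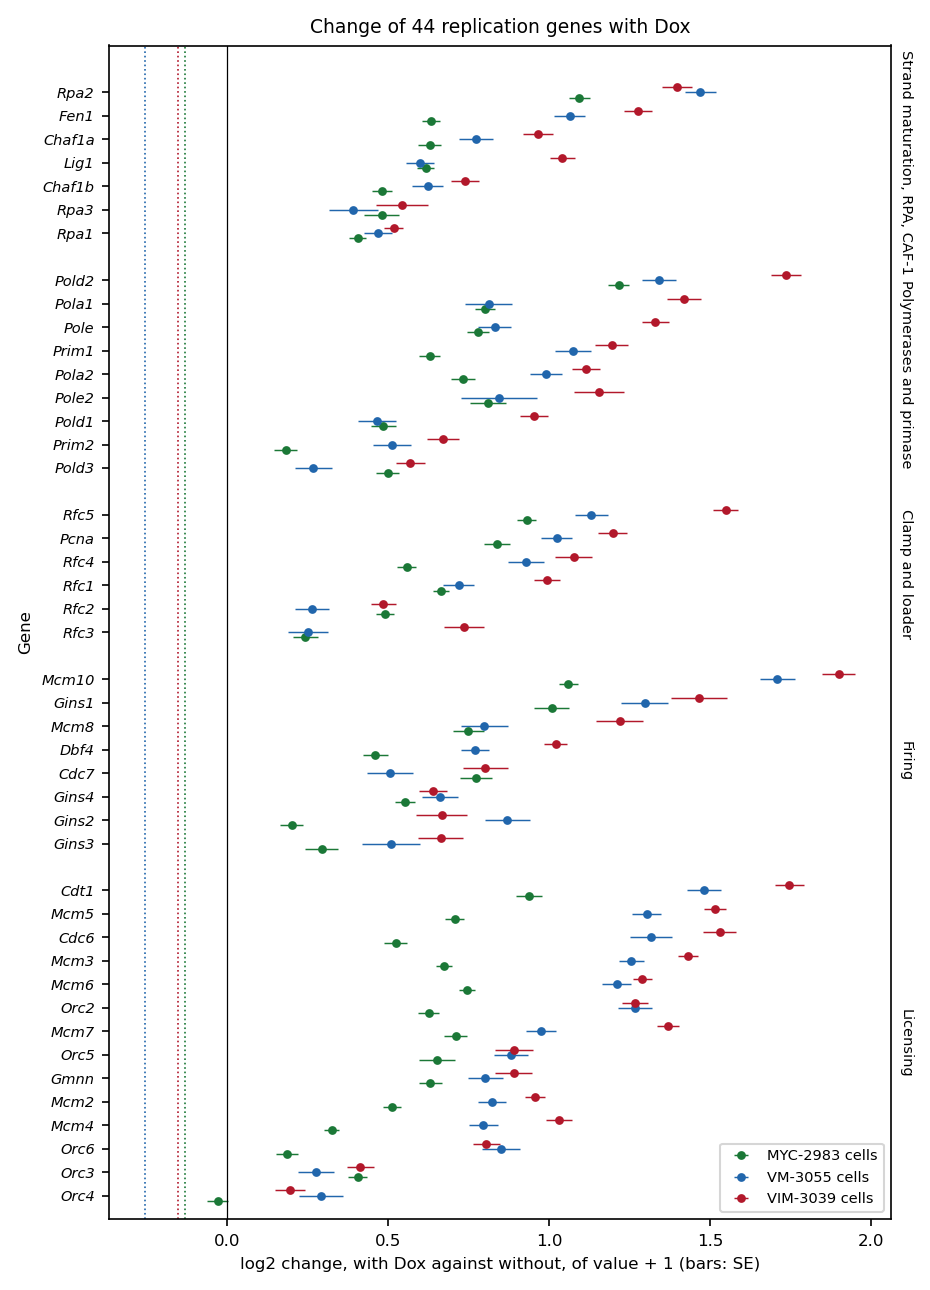
Each point is the log2 change of 1 member between libraries with and without Dox, on the log2(value + 1) scale, with its SE as a bar and members grouped by role; green is MYC-2983, blue VM-3055 and red VIM-3039, and dotted lines mark the median of all genes tested in each line. All points but Orc4 in MYC-2983 cells (-0.03, and 0.08 after TMM rescaling) lie to the right of 0.

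Markers of cell types were read beside these results. The 4 kidney epithelium markers (Cdh16, Pax8, Pax2 and Epcam), with Cdh16 the most abundant, summed to 11069, 11949, 12567 and 11039 units in MYC-2983 cells with Dox and 16339, 16934, 16469.9 and 17312 without. The same markers summed to 5844, 5721, 5751 and 5726 units in VM-3055 cells with Dox and 13114, 13024, 13022 and 13431 without. They summed to 5901, 5793, 5856 and 5943 units in VIM-3039 cells with Dox and 9894, 9971, 10209 and 10629.7 without. This sum, led by Cdh16, was lower with Dox in each line, and no marker was at 0. By limma adjusted p, Cdh16 and Pax8 were lower in each line, Pax2 was lower in MYC-2983 cells alone (-0.94), and Epcam was higher in MYC-2983 (0.33) and VIM-3039 cells (0.84). The 7 proximal tubule markers, Lrp2 the most abundant, summed to 4961, 4883, 4545 and 5523 units with Dox and 6654, 6966, 7425 and 7889.7 without in MYC-2983 cells, which did not overlap. They gave 5559, 5122, 5044 and 4142 with Dox and 6018, 8265, 5532 and 6354 without in VM-3055, and 4428, 3806, 4014 and 4157 with and 4586, 4609, 4153 and 4912 without in VIM-3039 cells, which overlapped in both lines. Of these markers, Cubn (-1.63, -2.05 and -1.19) and Aqp1 (-0.86, -1.19 and -0.48) were lower with Dox in all 3 lines by limma adjusted p, while Slc34a1, Slc5a2 and Slc22a6 were at or under the floor in all 6 cell groups. The 6 leukocyte markers, Csf1r the most abundant and Cd3e at or under the floor, summed to 246, 218, 255 and 254 units with Dox and 443, 461, 442 and 474 without in MYC-2983 cells. They gave 406, 386, 362 and 366 with Dox and 942, 982, 969.8 and 1006 without in VM-3055 cells, and 306, 293, 287 and 315 with and 399.5, 371, 405 and 446 without in VIM-3039 cells. The 4 fibroblast markers summed to 146, 137, 123 and 141 units with Dox and 543, 594, 564 and 607 without in MYC-2983 cells, with Col1a1 the most abundant. In VM-3055 cells they gave 2.96, 4.26, 2.55 and 2.63 with Dox and 20.3, 27.9, 24.03 and 29.6 without (Col1a1), and in VIM-3039 cells 31.2, 54.1, 34.1 and 41.2 with and 142, 136, 95.9 and 129 without (Pdgfrb). The 6 markers of loop, distal tubule and collecting duct summed to 0.559, 1.09, 1.63 and 1.57 units with Dox and 25.6, 35.5, 41.1 and 36.5 without in MYC-2983 cells, where Slc12a3 was at 0 with Dox and read 24.3, 34.2, 38.8 and 35.4 without. They gave 1.48, 1.70, 0.849 and 3.51 with Dox and 7.05, 9.31, 6.202 and 7.60 without in VM-3055, and 14.6, 8.32, 11.8 and 7.27 with and 11.4, 15.6, 18.4 and 9.12 without in VIM-3039 cells. The 4 endothelial markers summed to 7.83, 6.53, 5.42 and 4.72 units with Dox and 9.84, 12.5, 6.37 and 11.4 without in MYC-2983, 1.48, 1.70, 1.70 and 1.75 and 2.65, 4.27, 5.43 and 3.80 in VM-3055, and 2.08, 0.693, 0 and 0 and 2.85, 1.11, 0 and 0.830 in VIM-3039 cells. The part of these markers in the members' changes was not tested.

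Among the licensing genes, Cdt1 and Orc4 had the largest and the smallest mean change over the 3 lines. Cdt1 (chr8:125091915-125097028, mm9) loads the Mcm ring together with Cdc6. In MYC-2983 cells Cdt1 read 2361, 2506, 2535 and 2357 units with Dox and 1201, 1209, 1386 and 1301 units without. VM-3055 cells gave Cdt1 values of 1252, 1145, 1100.2 and 1133 units with Dox and 413, 396, 419 and 428 units without. In VIM-3039 cells Cdt1 read 1305, 1282, 1381 and 1356 units with Dox and 394, 382, 419 and 388 units without. All libraries with Dox lay above all those without in each line, and MYC-2983 cells held more Cdt1 than the other lines under either condition. For Cdt1 the log2 change with Dox was 0.94 ± 0.04 (SE) in MYC-2983, 1.48 ± 0.05 in VM-3055 cells and 1.75 ± 0.04 in VIM-3039, with limma adjusted p of 2.3e-13, 5.8e-14 and 5.7e-19. The Cdt1 change in MYC-2983 cells crossed the fold limit with TMM rescaling (1.05). On the same strand, Gm20388 overlaps Cdt1 in the annotation, and the authors' counting could split reads between them.

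Orc4 (chr2:48758344-48805797, mm9) is a subunit of ORC, which marks origins. Orc4 levels in MYC-2983 cells were 997.98, 923, 912 and 947 units with Dox and 994, 964, 946 and 953 without it. Orc4 levels in VM-3055 cells were 1332, 1302, 1479 and 1481 units with Dox and 1134, 1308, 1144 and 997 without it. Orc4 levels in VIM-3039 cells were 1253, 1330.0, 1346 and 1198 units with Dox and 1137, 1144, 1187 and 1012 without it. The Orc4 libraries with and without Dox overlapped in MYC-2983 cells and, by 1 library, in VM-3055 cells, while in VIM-3039 cells they lay apart by a small gap. limma put the Orc4 change at -0.03 ± 0.03 (log2, SE) in MYC-2983, 0.29 ± 0.07 in VM-3055 cells and 0.20 ± 0.05 in VIM-3039, at adjusted p of 0.434, 9.4e-04 and 8.9e-04. In MYC-2983 cells the sign turned with the scaling, and Orc4 was higher by adjusted p after TMM rescaling (0.08, limma adjusted p = 0.0361) and by limma voom (0.11, 0.0103), while quantile normalization gave 0.00. Acvr2a and Mbd5 overlap Orc4 on the other strand; whether the counting used strand is not given in the sources used here.

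Mcm2 to Mcm7 are the subunits of 1 helicase. Mcm2 (chr6:88833469-88848774) came first. With Dox, Mcm2 stood at 4242, 4066, 4290.4 and 4347 units in MYC-2983 cells, against 2966, 2845, 3036 and 3039 without. The Mcm2 signal in VM-3055 cells was 3075, 3048, 2976 and 2917 units with Dox, against 1713, 1689, 1606 and 1792 without. The Mcm2 signal in VIM-3039 cells was 3036, 3179, 3074 and 3199 units with Dox, against 1609, 1583, 1626 and 1618 without. The groups did not overlap in any line. Mcm2 thus differed by 0.51 ± 0.03 (log2, SE) in MYC-2983 cells, 0.82 ± 0.04 in VM-3055 cells and 0.96 ± 0.03 in VIM-3039 cells (limma adjusted p of 8.9e-12, 9.2e-12 and 3.5e-17). The Mcm2 change passed the fold limit with TMM rescaling in VM-3055 (1.03) and VIM-3039 cells (1.11), and by limma voom in VIM-3039 cells (1.07). Mcm3 lies at chr1:20793055-20810359. In MYC-2983 cells Mcm3 read 4527, 4521, 4688 and 4603 units with Dox and 2875, 2789.6, 2895 and 2944 units without. VM-3055 cells gave Mcm3 values of 3557, 3460.5, 3499.8 and 3428 units with Dox and 1428, 1489, 1444 and 1476 units without. In VIM-3039 cells Mcm3 read 3537, 3492, 3382 and 3618 units with Dox and 1297, 1285, 1335 and 1278 units without. VM-3055 and VIM-3039 cells with Dox overlapped for Mcm3, and without Dox VIM-3039 was the lowest line. For Mcm3 the log2 change with Dox was 0.67 ± 0.03 (SE) in MYC-2983, 1.26 ± 0.04 in VM-3055 cells and 1.43 ± 0.03 in VIM-3039, with limma adjusted p of 2.8e-14, 1.0e-14 and 9.7e-20. Mcm4 lies at chr16:15623990-15637493. Mcm4 levels in MYC-2983 cells were 4798, 4640.0, 4744 and 4743 units with Dox and 3716, 3737, 3812 and 3845 without it. Mcm4 levels in VM-3055 cells were 3008, 3018, 3105 and 3021 units with Dox and 1670.2, 1869.7, 1677 and 1787 without it. Mcm4 levels in VIM-3039 cells were 3135, 3354, 3257 and 3307 units with Dox and 1498, 1746, 1560.2 and 1584 without it. MYC-2983 cells without Dox held more Mcm4 than the other lines with it. limma put the Mcm4 change at 0.32 ± 0.02 (log2, SE) in MYC-2983, 0.80 ± 0.04 in VM-3055 cells and 1.03 ± 0.04 in VIM-3039, at adjusted p of 5.1e-10, 2.0e-11 and 7.6e-16. With TMM rescaling the Mcm4 change in VM-3055 cells passed the fold limit (1.01).

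Mcm5 (chr8:77633427-77652338) is the subunit at the gate with Mcm2 through which DNA enters the ring. In MYC-2983 cells Mcm5 read 5240.0, 5388, 5580.4 and 5395 units with Dox and 3244, 3154, 3392 and 3450.5 units without. VM-3055 cells gave Mcm5 values of 3178, 2994, 2938 and 3066 units with Dox and 1222, 1189, 1212 and 1310.3 units without. In VIM-3039 cells Mcm5 read 3877, 3901, 3759.8 and 3851 units with Dox and 1302, 1297, 1359 and 1428 units without. With Dox the lines did not overlap, in the order MYC-2983, VIM-3039 and VM-3055. For Mcm5 the log2 change with Dox was 0.71 ± 0.03 (SE) in MYC-2983, 1.30 ± 0.04 in VM-3055 cells and 1.52 ± 0.03 in VIM-3039, with limma adjusted p of 1.9e-13, 3.0e-14 and 1.2e-19. Mcm6 lies at chr1:130228168-130256233. Mcm6 levels in MYC-2983 cells were 5444, 5353, 5436 and 5458 units with Dox and 3199, 3209, 3188 and 3338 without it. Mcm6 levels in VM-3055 cells were 4591, 4627, 4775 and 4620.2 units with Dox and 1979.7, 2123, 1879.8 and 2066 without it. Mcm6 levels in VIM-3039 cells were 4449, 4513, 4604 and 4469.9 units with Dox and 1852, 1831, 1847 and 1842 without it. All libraries with Dox lay above those without in each line. limma put the Mcm6 change at 0.75 ± 0.02 (log2, SE) in MYC-2983, 1.21 ± 0.04 in VM-3055 cells and 1.29 ± 0.03 in VIM-3039, at adjusted p of 3.8e-15, 6.9e-14 and 9.5e-20. Mcm7 (chr5:138605811-138613650) hosts Mir25, Mir93 and Mir106b on its own strand and overlaps Cops6 and Ap4m1 on the other. With Dox, Mcm7 stood at 2740.5, 2736, 2971 and 2988 units in MYC-2983 cells, against 1758, 1636, 1803 and 1792 without. The Mcm7 signal in VM-3055 cells was 2948, 2819, 2789 and 2855 units with Dox, against 1443, 1488, 1349 and 1528 without. The Mcm7 signal in VIM-3039 cells was 2524, 2538, 2519.7 and 2605 units with Dox, against 956, 986, 985 and 1015 without. Without Dox the VIM-3039 libraries were the lowest, and with Dox they lay just under those of the other lines. Mcm7 thus differed by 0.71 ± 0.04 (log2, SE) in MYC-2983 cells, 0.98 ± 0.05 in VM-3055 cells and 1.37 ± 0.03 in VIM-3039 cells (limma adjusted p of 2.5e-12, 1.6e-12 and 2.7e-19). The Mcm7 change in VM-3055 cells lay at the fold limit: it passed with TMM rescaling (1.19), with quantile normalization (1.0003), by limma voom (1.07) and without replicate 4 of the cells without Dox (1.0002).

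**Figure D2:**
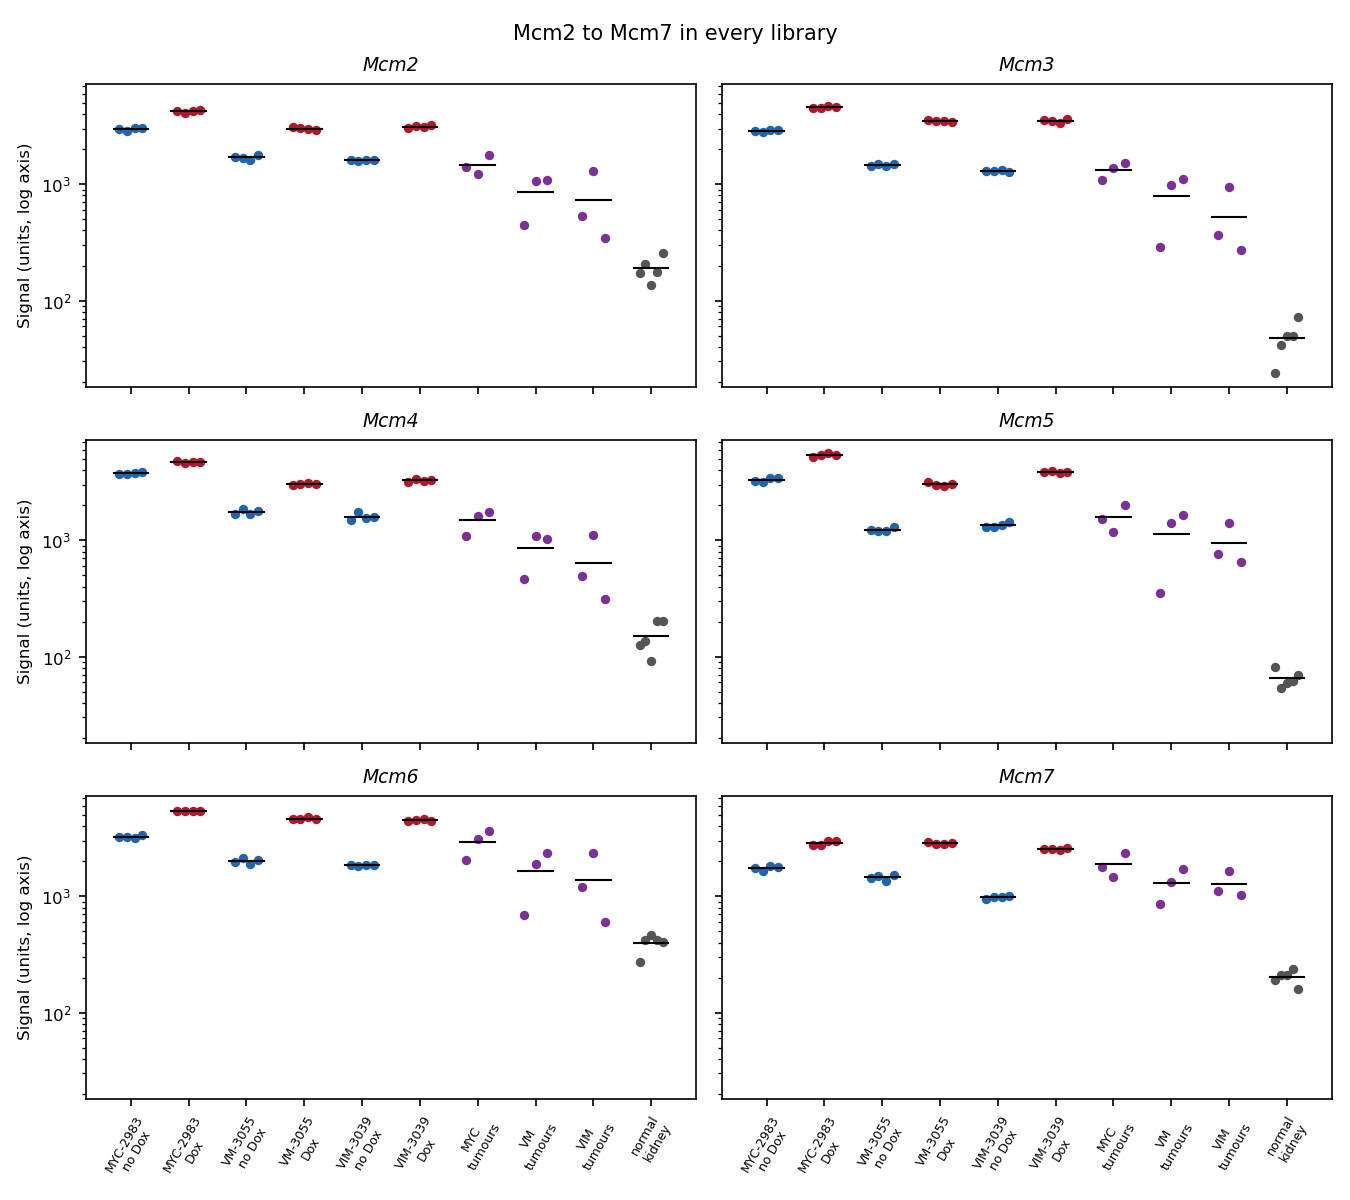
Each panel shows the signal of 1 subunit in units, on a log axis, with a point for each of the 38 libraries and a bar at the mean of each of the 10 groups. Within each line the points with Dox lie above those without, and every tumour point lies above every kidney point (Mcm3: 269.8 units in the lowest tumour, 72.4 in the highest kidney).

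Divided by the summed length of their exons, the levels of the 6 subunits could be compared with each other. In MYC-2983 cells with Dox, Mcm5 was the highest at 1544 ± 39.9 units per kb and Mcm7 the lowest at 646 ± 31.5 (mean ± SD, n = 4), a ratio of 2.39. Without Dox, Mcm4 was the highest at 1053 ± 17.1 units per kb and Mcm7 the lowest at 395 ± 17.3, a ratio of 2.67. In VM-3055 cells with Dox, Mcm3 was the highest at 1166 ± 18.6 units per kb and Mcm7 the lowest at 644 ± 15.6, and the ratio of highest to lowest was 1.81 with Dox and 1.54 without, where Mcm2 led. In VIM-3039 cells Mcm3 led with Dox and Mcm2 without, at ratios of 2.04 and 2.14. In the tumours Mcm6 led, over Mcm4 in MYC and VM tumours (ratios of 1.62 and 1.58) and over Mcm3 in VIM tumours (ratio of 1.80). The subunits were least even in kidney, where Mcm6 was the highest at 90.6 ± 16.8 units per kb and Mcm3 the lowest at 15.9 ± 5.85 (n = 5), a ratio of 5.71. These ratios were not tested and depend on the exon lengths of the annotation used here.

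Among the firing genes, Mcm10 and Gins3 had the largest and the smallest mean change with Dox. Mcm10 (chr2:4910760-4933837), which helps the assembled helicase to open the origin, changed more with Dox than any other member in VM-3055 and VIM-3039 cells. In MYC-2983 cells Mcm10 read 1631, 1603, 1636 and 1625 units with Dox and 783, 751, 777 and 803 units without. VM-3055 cells gave Mcm10 values of 1279, 1191, 1268 and 1211 units with Dox and 378, 399.8, 351 and 382 units without. In VIM-3039 cells Mcm10 read 1068, 1116, 1056 and 1119 units with Dox and 319.8, 291, 276 and 280.4 units without. The groups did not overlap in any line. For Mcm10 the log2 change with Dox was 1.06 ± 0.03 (SE) in MYC-2983, 1.71 ± 0.05 in VM-3055 cells and 1.90 ± 0.05 in VIM-3039, with limma adjusted p of 3.3e-16, 1.0e-14 and 1.9e-18. Gins3 (chr8:98157459-98168959) is a subunit of GINS, which binds the helicase at the fork. Gins3 levels in MYC-2983 cells were 368, 368, 376 and 374 units with Dox and 327, 282, 311 and 294 without it. Gins3 levels in VM-3055 cells were 239, 225, 245 and 209.6 units with Dox and 163, 181, 154 and 147 without it. Gins3 levels in VIM-3039 cells were 272, 267, 274 and 264 units with Dox and 166, 176, 165 and 171 without it. limma put the Gins3 change at 0.29 ± 0.05 (log2, SE) in MYC-2983, 0.51 ± 0.09 in VM-3055 cells and 0.66 ± 0.07 in VIM-3039, at adjusted p of 3.4e-05, 5.6e-05 and 2.0e-08.

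Among the clamp and its loader, Rfc5 and Rfc3 were the extremes. Rfc5 (chr5:117828112-117839056) and Rfc3 (chr5:152445331-152453817) are small subunits of RFC. With Dox, Rfc5 stood at 1378, 1449.7, 1414 and 1487 units in MYC-2983 cells, against 751, 754, 754 and 744 without. The Rfc5 signal in VM-3055 cells was 1394, 1253, 1435 and 1359.6 units with Dox, against 619.9, 639.8, 626 and 596 without. The Rfc5 signal in VIM-3039 cells was 1281, 1232, 1229 and 1229 units with Dox, against 422, 424, 423 and 426 without. All groups with Dox lay above those without. Rfc5 thus differed by 0.93 ± 0.03 (log2, SE) in MYC-2983 cells, 1.13 ± 0.05 in VM-3055 cells and 1.55 ± 0.04 in VIM-3039 cells (limma adjusted p of 3.6e-15, 1.0e-12 and 7.1e-19). TMM rescaling (1.04) and limma voom (1.07) carried the Rfc5 change in MYC-2983 cells over the fold limit, and Wsb2 overlaps Rfc5 in the annotation. In MYC-2983 cells Rfc3 read 736, 732, 751 and 704 units with Dox and 616, 595, 599 and 662 units without. VM-3055 cells gave Rfc3 values of 459, 439, 479.6 and 489 units with Dox and 381, 406, 412 and 368 units without. In VIM-3039 cells Rfc3 read 632, 586, 527 and 532 units with Dox and 333, 366, 346 and 319 units without. Rfc3 was also higher in every library with Dox, with the widest gap in VIM-3039 cells. For Rfc3 the log2 change with Dox was 0.24 ± 0.04 (SE) in MYC-2983, 0.25 ± 0.06 in VM-3055 cells and 0.74 ± 0.06 in VIM-3039, with limma adjusted p of 1.5e-05, 0.0014 and 5.8e-10.

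Among the polymerases, accessory subunits of polymerase delta were both the most and the least changed. Pold2 (chr11:5772183-5778295) joins the catalytic subunit to Pold3. Pold2 levels in MYC-2983 cells were 2555, 2599, 2812 and 2539 units with Dox and 1117, 1163, 1126 and 1112 without it. Pold2 levels in VM-3055 cells were 1709, 1694, 1576 and 1573 units with Dox and 631, 599, 679.8 and 675 without it. Pold2 levels in VIM-3039 cells were 1404, 1404, 1375 and 1517 units with Dox and 395, 421, 449 and 443 without it. Pold2 was the member with the largest change in MYC-2983 cells, and its groups lay far apart in each line. limma put the Pold2 change at 1.22 ± 0.03 (log2, SE) in MYC-2983, 1.34 ± 0.05 in VM-3055 cells and 1.74 ± 0.05 in VIM-3039, at adjusted p of 2.6e-16, 1.6e-13 and 2.0e-18. Pold3 (chr7:107230621-107270075) contacts PCNA. With Dox, Pold3 stood at 848, 839, 877 and 885 units in MYC-2983 cells, against 639.8, 607, 577 and 616 without. The Pold3 signal in VM-3055 cells was 734, 671, 769.9 and 738 units with Dox, against 577, 619, 578 and 644 without. The Pold3 signal in VIM-3039 cells was 652, 641, 669 and 647 units with Dox, against 451, 430.3, 435 and 441 without. The groups lay apart in each line, by the smallest gap in VM-3055 cells. Pold3 thus differed by 0.50 ± 0.04 (log2, SE) in MYC-2983 cells, 0.27 ± 0.06 in VM-3055 cells and 0.57 ± 0.05 in VIM-3039 cells (limma adjusted p of 4.6e-10, 4.3e-04 and 1.7e-10).

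Of the genes that protect and finish the new strands, Rpa2 and Rpa1 were the extremes, although both encode subunits of the single-strand binding protein RPA. Rpa2 lies at chr4:132324247-132334667 and Rpa1, the large subunit, at chr11:75111668-75161826. In MYC-2983 cells Rpa2 read 1461, 1558, 1592 and 1524 units with Dox and 745, 717, 707 and 701 units without. VM-3055 cells gave Rpa2 values of 1228, 1187, 1205 and 1177 units with Dox and 413, 438, 443 and 436 units without. In VIM-3039 cells Rpa2 read 1127, 1009, 1150.3 and 1074 units with Dox and 404, 421, 409 and 417 units without. Rpa2 was far higher in each library with Dox. For Rpa2 the log2 change with Dox was 1.09 ± 0.03 (SE) in MYC-2983, 1.47 ± 0.05 in VM-3055 cells and 1.40 ± 0.05 in VIM-3039, with limma adjusted p of 1.3e-15, 1.6e-14 and 5.6e-17. Rpa1 levels in MYC-2983 cells were 4947, 4899, 4961 and 5102 units with Dox and 3823, 3735, 3839 and 3632 without it. Rpa1 levels in VM-3055 cells were 3336, 3454, 3498 and 3548 units with Dox and 2495, 2648, 2365 and 2488 without it. Rpa1 levels in VIM-3039 cells were 3749, 3830.1, 3721 and 3795 units with Dox and 2679, 2623, 2633 and 2610.3 without it. Rpa1 was higher in each library with Dox too, by less than a doubling. limma put the Rpa1 change at 0.41 ± 0.03 (log2, SE) in MYC-2983, 0.47 ± 0.04 in VM-3055 cells and 0.52 ± 0.03 in VIM-3039, at adjusted p of 5.7e-11, 2.2e-08 and 3.6e-13.

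A list of 32 other replication genes was read beside the members. With Dox, 4 passed as higher in MYC-2983, 9 in VM-3055 cells and 16 in VIM-3039, with medians of 0.62, 0.78 and 0.99, against the shares of all genes given above. The 4 of MYC-2983 cells passed in all 3 lines and were named after their values were seen. Dna2, a nuclease that trims Okazaki fragments, had log2 changes of 1.27, 1.56 and 1.90. Recql4, a helicase that acts at origins, had 1.01, 1.38 and 1.84. Dtl, which targets Cdt1 for destruction, had 1.11, 1.46 and 1.57, and Rnaseh2a, which removes ribonucleotides from DNA, 1.05, 1.30 and 1.07. By limma adjusted p alone 30, 30 and 31 were higher, and Donson passed neither way in MYC-2983 and VM-3055 cells (-0.02 and -0.05). 1 gene of the list passed as lower, in each line: Pold4, the smallest subunit of polymerase delta. Pold4 levels in MYC-2983 cells were 103, 108, 126 and 107 units with Dox and 264, 282, 293 and 303 without it. Pold4 levels in VM-3055 cells were 95.3, 78.3, 72.2 and 95.6 units with Dox and 271, 244, 289 and 267 without it. Pold4 levels in VIM-3039 cells were 244, 225, 245 and 244 units with Dox and 530.5, 526, 572 and 649 without it. limma put the Pold4 change at -1.35 ± 0.07 (log2, SE) in MYC-2983, -1.65 ± 0.11 in VM-3055 cells and -1.24 ± 0.07 in VIM-3039, at adjusted p of 5.1e-12, 1.5e-10 and 1.9e-13. Of the 8 proliferation markers, 1 passed as higher in MYC-2983 cells (Aurkb), 5 in VM-3055 and 7 in VIM-3039, and by adjusted p alone all 8 were higher in each line.

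The Dox changes of the lines were compared by the interaction of line and Dox, by adjusted p alone. These comparisons share the libraries of a line. The labels number the MYC-2983 libraries apart from the others, and whether they were prepared or sequenced separately is not given in the sources used here. Between VIM-3039 and VM-3055 cells, 23 members had a higher change in VIM-3039 and 0 a lower one, against 22.8% and 10.5% of 15180 genes. The count of 0 came from limma; 25 members passed at an unadjusted p under 0.05, and limma voom gave 26 higher and 0 lower. The median difference of the members was 0.18 and that of all genes 0.10, and TMM rescaling brought these to -0.01 for all genes and 0.07 for the members. After TMM rescaling 11 members were higher and 2 lower, against 13.1% and 17.4% of all genes, the latter Gins2 (-0.32) and Rpa2 (-0.19), with limma adjusted p of 0.0304 and 0.0193, named after their values were seen. Without replicate 2 of the VIM-3039 cells without Dox, Gins2 was lower too (-0.29). Between VM-3055 and MYC-2983 cells, 26 members had a higher change in VM-3055, against 17.5% of 15813 genes, and 3 a lower one, against 28.7%. The 3 were Cdc7 (-0.27 ± 0.09, SE), Rfc2 (-0.23 ± 0.06) and Pold3 (-0.23 ± 0.07), with limma adjusted p of 0.0182, 0.00261 and 0.00774, named after their values were seen. By limma voom 28 members differed, and Orc3 was lower as well (-0.17). Orc3 was also lower without replicate 3 of the VM-3055 cells without Dox (-0.17). Between VIM-3039 and MYC-2983 cells, 38 members had a higher change in VIM-3039, against 23.9% of 15630 genes, and 0 a lower one, against 23.6%, by limma; limma voom gave 37 and 0, and 38 passed at an unadjusted p under 0.05. Median differences were 0.22 and 0.47 for the members and -0.08 and 0.01 for all genes. Of the 8 proliferation markers, 3, 7 and 8 had a higher change in these 3 comparisons, in the order given, by limma.

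In each comparison the 2 members with the lowest adjusted p were Lig1 and Pole for VIM-3039 and VM-3055, Mcm3 and Mcm10 for VM-3055 and MYC-2983, and Mcm3 and Mcm5 for VIM-3039 and MYC-2983. Lig1 (chr7:13862632-13896782) seals the nicks between Okazaki fragments. In MYC-2983 cells Lig1 read 2225, 2316, 2367 and 2376 units with Dox and 1497, 1484, 1539.9 and 1529.9 units without. VM-3055 cells gave Lig1 values of 1589.7, 1564, 1525 and 1525 units with Dox and 1032, 990.3, 1004 and 1072 units without. In VIM-3039 cells Lig1 read 1463, 1407, 1391 and 1509 units with Dox and 689, 700.1, 689.8 and 723 units without. Without Dox the VIM-3039 libraries held less Lig1 than those of VM-3055, and with Dox the lines nearly met. For Lig1 the log2 change with Dox was 0.62 ± 0.03 (SE) in MYC-2983, 0.60 ± 0.04 in VM-3055 cells and 1.04 ± 0.04 in VIM-3039, with limma adjusted p of 3.7e-13, 7.7e-10 and 3.4e-16. The Lig1 change in VIM-3039 cells exceeded that in VM-3055 cells by 0.44 ± 0.05 (log2, SE; limma adjusted p = 1.3e-06). Pole (chr5:110715325-110766493) is the catalytic subunit of polymerase epsilon, which copies the leading strand. With Dox, Pole stood at 1791, 1886, 1876 and 1861 units in MYC-2983 cells, against 1005, 1096, 1098 and 1125 without. The Pole signal in VM-3055 cells was 1445, 1309.8, 1358 and 1264 units with Dox, against 783, 776, 719 and 741 without. The Pole signal in VIM-3039 cells was 1449, 1416, 1386 and 1489.7 units with Dox, against 537, 564, 592 and 589 without. Pole thus differed by 0.78 ± 0.03 (log2, SE) in MYC-2983 cells, 0.83 ± 0.05 in VM-3055 cells and 1.33 ± 0.04 in VIM-3039 cells (limma adjusted p of 2.3e-13, 7.7e-11 and 2.0e-17). The Pole changes differed by 0.50 ± 0.07 (log2, SE; limma adjusted p = 3.6e-06).

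For Mcm3 the change was larger than in MYC-2983 cells by 0.58 ± 0.04 (log2, SE) in VM-3055 cells and 0.76 ± 0.04 in VIM-3039, with limma adjusted p of 3.8e-10 and 5.6e-13. Mcm10 changed by 0.65 ± 0.06 more in VM-3055 than in MYC-2983 cells (limma adjusted p = 9.8e-09). Mcm5 changed by 0.81 ± 0.05 more in VIM-3039 than in MYC-2983 cells (limma adjusted p = 6.5e-12).

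With Dox, no member differed by more than the fold limit between VIM-3039 and VM-3055 cells. 0 of the 44 members passed in limma, against 19.1% of 14060 genes in either direction. At an unadjusted p under 0.05 there were 32, where 69.7% of all genes passed, and limma voom gave 0, with 36 at an unadjusted p. By adjusted p alone 16 members were higher and 15 lower in VIM-3039, against 35.1% and 32.4% of all genes, so both shares were near those of the table. The differences ran from -0.67 ± 0.03 (log2, SE) for Dbf4, the activating subunit of Cdc7, to 0.55 ± 0.09 for Pole2, a subunit of polymerase epsilon, with limma adjusted p of 8.8e-12 and 3.1e-05; both were named after their values were seen. VIM-3039 cells with Dox held 2065, 2136, 2126 and 2018 units of Dbf4 and VM-3055 cells 3336, 3265, 3406 and 3293.9. For Pole2 the values were 435, 360.5, 371 and 343 units in VIM-3039 and 232, 265, 238 and 298 in VM-3055 cells. Of the 32 other replication genes, 2 passed, both higher in VIM-3039: Dna2 (1.16) and Pold4 (1.49).

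Since the members moved together, the promoters in RefSeq (GRCm38.p6, from 250 bases before to 50 after each annotated start) were searched on both strands for CACGTG, the E-box that MYC with MAX can bind, and for TTTCGCGC and TTTGGCGC, words of the E2F site, which can overlap on opposite strands. 36 members matched by symbol, with 45 promoters; Gins1, Gins2, Gins4, Gmnn, Mcm4, Pole, Prim2 and Rfc2 did not. An E2F word stood in 10 promoters of members (22.2%), against 0.813% of the 32851 promoters in the table. The E-box stood in 8 promoters (17.8%), against 7.15%; 1 promoter, of Mcm8, held both, and Lig1 held them in separate promoters. The members' promoters also had a higher median share of G and C than all promoters, and a larger share of them held CCAAT. Each word searched for MYC or E2F contains CG, and promoters of like composition were not compared. The part of base composition in the shares of the E-box and E2F words was not tested. These are matches of letters, not sites shown to be bound, and their absence says nothing of a factor. Shown on the gene's strand, 5′ to 3′, with the words in capitals, are Mcm3 (chr1:20820263-20820562, minus strand), Mcm5 (chr8:75109259-75109558, plus strand), Mcm6 (chr1:128359656-128359955, minus strand) and Cdt1 (chr8:122567765-122568064, plus strand), examples of licensing genes with a large change and an E2F word, and Orc4 (chr2:48949218-48949517, minus strand), whose change was the smallest and of whose 3 promoters only this one held an E-box; they were chosen after their values were seen. Mcm10, with the largest mean change, and Cdc6 and Orc2, near Mcm6 in theirs, held neither the E-box nor either E2F word searched. Nor did Pold2, Rpa2 and Rfc5, the most changed genes of their roles. Rfc3, the least changed of the clamp and loader genes, held TTTCGCGC. Other forms of the E2F site were not searched, and the Mcm10 promoter ended in TTTGGCG at the edge of its window. Whether these words go with the size of the change was not tested.
Mcm3: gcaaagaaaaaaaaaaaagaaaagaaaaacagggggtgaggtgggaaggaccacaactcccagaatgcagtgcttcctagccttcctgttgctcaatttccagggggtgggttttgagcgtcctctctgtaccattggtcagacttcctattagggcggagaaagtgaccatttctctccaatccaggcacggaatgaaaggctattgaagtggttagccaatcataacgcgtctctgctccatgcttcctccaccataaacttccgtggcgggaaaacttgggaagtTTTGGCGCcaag
Mcm5: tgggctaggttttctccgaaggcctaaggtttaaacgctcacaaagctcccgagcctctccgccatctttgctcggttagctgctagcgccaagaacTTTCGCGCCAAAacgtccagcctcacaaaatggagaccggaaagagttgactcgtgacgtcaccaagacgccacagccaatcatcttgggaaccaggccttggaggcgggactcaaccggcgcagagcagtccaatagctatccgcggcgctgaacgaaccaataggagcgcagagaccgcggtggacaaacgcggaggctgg
Mcm6: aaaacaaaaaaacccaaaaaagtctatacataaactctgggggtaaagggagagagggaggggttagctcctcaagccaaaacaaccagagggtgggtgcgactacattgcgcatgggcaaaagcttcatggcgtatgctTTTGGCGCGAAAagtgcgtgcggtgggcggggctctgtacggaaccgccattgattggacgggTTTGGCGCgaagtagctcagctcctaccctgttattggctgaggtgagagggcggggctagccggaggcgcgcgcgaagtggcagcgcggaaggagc
Cdt1: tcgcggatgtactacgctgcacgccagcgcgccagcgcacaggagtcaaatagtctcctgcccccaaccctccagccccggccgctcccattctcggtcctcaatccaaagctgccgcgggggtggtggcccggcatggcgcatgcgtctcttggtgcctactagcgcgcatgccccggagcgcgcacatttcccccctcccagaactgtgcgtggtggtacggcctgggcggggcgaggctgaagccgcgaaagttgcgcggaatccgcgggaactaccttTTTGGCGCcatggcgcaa
Orc4: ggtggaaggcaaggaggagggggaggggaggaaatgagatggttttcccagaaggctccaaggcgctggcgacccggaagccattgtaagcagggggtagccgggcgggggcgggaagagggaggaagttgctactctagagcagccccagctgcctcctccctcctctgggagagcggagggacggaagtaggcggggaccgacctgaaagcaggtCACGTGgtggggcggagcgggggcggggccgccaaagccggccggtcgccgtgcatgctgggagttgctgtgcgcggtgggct

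In tumours, most members were higher than in normal kidney. The 4 tissue groups were fitted together, with the 2 libraries of mouse 2983 averaged so that MYC tumours counted as 2 animals, and all 3 comparisons share the kidney libraries. In MYC tumours 34 members passed as higher and 0 as lower, against 16.8% and 16.2% of 17131 genes. In VM tumours 32 passed as higher and 0 as lower, against 16.4% and 21.2%. In VIM tumours 35 passed as higher and 0 as lower, against 17.98% and 19.3%. By adjusted p alone, 37, 36 and 37 members were higher, against 22.2%, 22.8% and 24.2% of all genes. The counts of 0 lower members came from limma, at an unadjusted p under 0.05 as well, and limma voom gave 39, 38 and 36 higher and 0 lower. The median log2 difference of the members was 2.51 in MYC (range -0.28 to 6.21), 2.05 in VM (-0.06 to 5.33) and 1.95 in VIM tumours (0.14 to 4.98), and that of all genes 0.08, -0.03 and 0.00. Relative to all genes, the VM median was 2.07 as scaled by the authors and 1.97 after quantile normalization, which moved the median of all genes to 0.09. By role, MYC, VM and VIM tumours had 9, 9 and 12 of 14 licensing genes higher, 7, 6 and 6 of 8 firing genes, 5, 4 and 4 of 6 clamp genes, 8, 8 and 8 of 9 polymerase genes and 5, 5 and 5 of 7 strand genes.

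**Figure D3:**
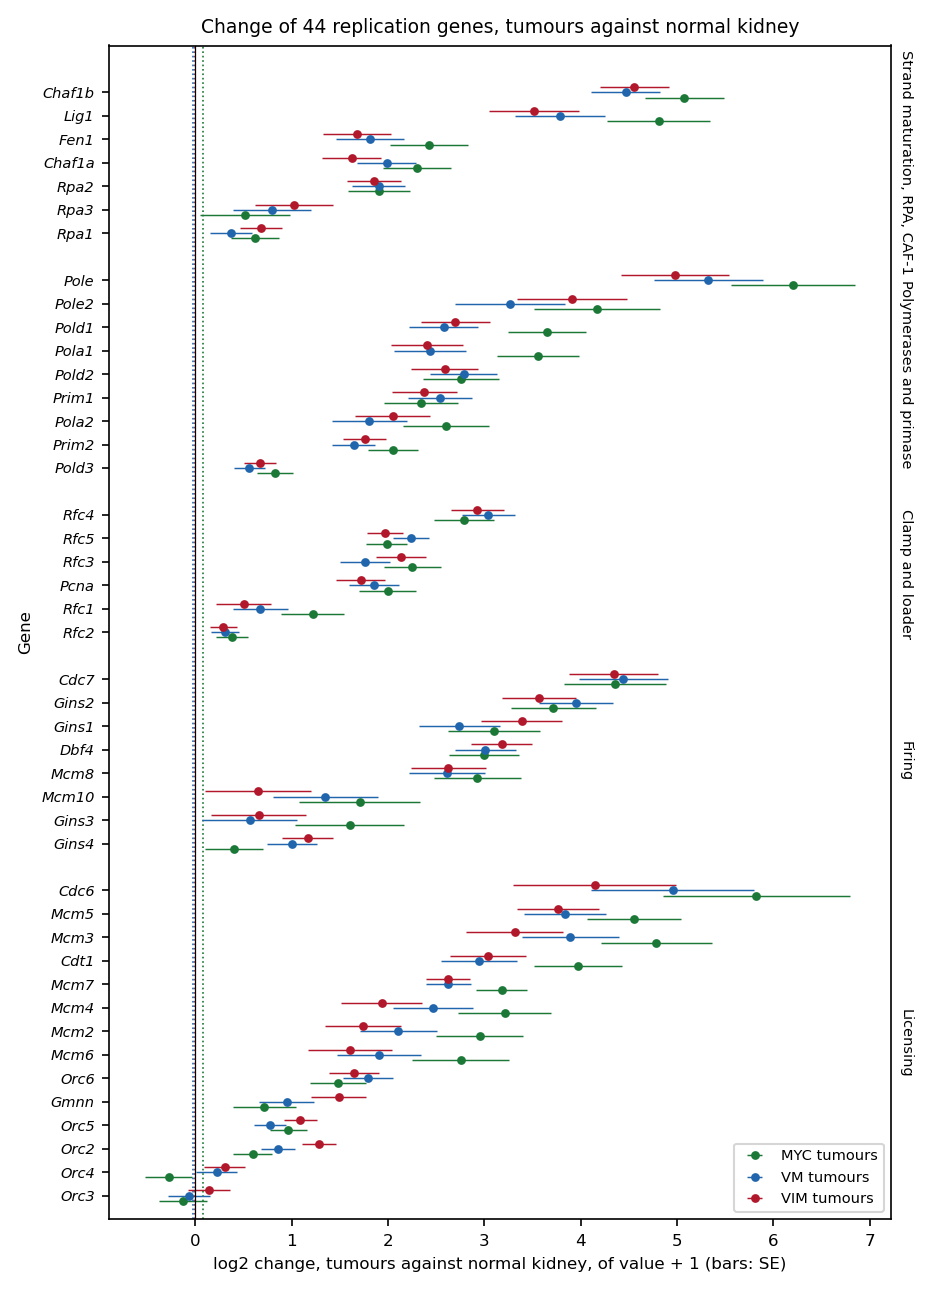
Each point is the log2 difference of 1 member between a tumour type and normal kidney, on the log2(value + 1) scale, with its SE as a bar and members grouped by role; green is MYC, blue VM and red VIM tumours, and dotted lines mark the median of all genes tested. Pole, at 6.21, 5.33 and 4.98, is farthest to the right, and Orc3 and Orc4 lie around 0; the sign of Orc4 turned in MYC tumours by limma voom, and that of Orc3 in each tumour type under other settings or with other kidneys.

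Cell type markers differed between the tissues as well. The 7 proximal tubule markers summed to 18302, 4445 and 4197 units in MYC, 6986, 7146 and 9051 in VM and 8162, 11288 and 3122 in VIM tumours, against 280550.3, 304948, 310104, 307569 and 272222 in kidney, with Slc34a1 the most abundant in kidney, Lrp2 in MYC and VM and Slc27a2 in VIM tumours. The 6 markers of loop, distal tubule and collecting duct summed to 41.04, 2789 and 93.2 units in MYC, 7.99, 14.4 and 2.47 in VM and 158, 6583 and 71.6 in VIM tumours, against 73493, 110579.6, 90281, 90819 and 163228 in kidney, Umod being the most abundant in kidney; Aqp2 and Scnn1g were at 0 in VM tumours. The 4 kidney epithelium markers, Cdh16 the most abundant, summed to 16217, 16864 and 13821 units in MYC, 13952, 17544 and 10375 in VM and 14347, 15284 and 8358 in VIM tumours, against 18623, 21809, 22519, 20407 and 27256 in kidney. The epithelial sum was carried by Cdh16, and the other genes split: Pax8 was higher in MYC, VM and VIM tumours (1.42, 1.14 and 1.49), Epcam lower (-4.50, -7.26 and -2.19; of the MYC libraries of mouse 2983, 1 read 925.9 units, within the kidney range of 758 to 1996, and 1 read 14.1), and Pax2 lower in VM (-5.78, there at or under the floor) and VIM tumours (-4.89), by limma. Cdh16 itself passed as lower in VIM tumours (-1.15), was lower by limma adjusted p alone in VM (-0.80) and did not pass in MYC tumours (-0.66). The 6 leukocyte markers summed to 14879.7, 3129.6 and 3279.7 units in MYC, 7689.7, 2144 and 3279 in VM and 13919, 6941 and 7782 in VIM tumours, against 1493, 1477, 1265, 1379 and 2220.1 in kidney, with Lyz2 leading in tumours and Csf1r in kidney; Cd79a was at 0 in VM and Cd3e in VIM tumours. Only Lyz2 (3.66, 2.87 and 4.36) and Cd68 (3.90, 3.70 and 4.82) passed as higher than in kidney, while Ptprc (-2.29) and Cd79a (-2.42) passed as lower in VM and Cd3e (-2.76) in VIM tumours, by limma. The 4 endothelial markers summed to 546, 1373 and 188 units in MYC, 1917, 244 and 527 in VM and 427, 633 and 907 in VIM tumours, against 3479, 2772, 2975, 3738 and 4649 in kidney, with Pecam1 leading in MYC and VM and Emcn in VIM tumours and kidney. The 4 fibroblast markers summed to 607, 4676 and 519.8 units in MYC, 956, 308 and 360.0 in VM and 429, 1202 and 929 in VIM tumours, against 1026, 1620.4, 771, 1226 and 2373 in kidney, with Col1a1 leading in tumours and Pdgfrb in kidney. By limma Pdgfrb was lower in VM (-2.41) and VIM tumours (-1.78), and Dcn was lower in VM tumours (-3.64). The part of these cell types in the members' differences was not tested.

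Of the ORC genes, Orc3 and Orc4 stood near their kidney levels. Orc3 (chr4:34518045-34562193) is a core subunit of ORC. MYC tumours held 1275, 1258 and 1242 units of Orc3, VM tumours 1322, 1168 and 1499 and VIM tumours 1228, 1345 and 2161. In the kidneys, Orc3 read 1812, 1137, 1683, 1345 and 1086 units. The Orc3 ranges of all 3 tumour types overlapped that of kidney, and replicate 3 of the VIM tumours was the highest of all. Against kidney, Orc3 differed by -0.13 ± 0.25 (log2, SE) in MYC, -0.06 ± 0.22 in VM and 0.14 ± 0.22 in VIM tumours, with limma adjusted p of 0.711, 0.839 and 0.617. Its sign turned in MYC and VM tumours against the KT kidneys alone (0.09 and 0.16) and by limma voom (0.34 and 0.37), in VM tumours also after quantile normalization (0.04), and in VIM tumours against the B6 kidneys alone (-0.19). It turned as well without replicate 2 of the VM tumours (0.03), without kidney replicate 1 (0.03) or 3 (0.01) in the VM comparison, and without replicate 3 of the VIM tumours (-0.11). Orc4 read 774, 790.1 and 775 units in MYC, 963, 1104 and 1250.0 in VM and 1112, 844 and 1681 in VIM tumours. Orc4 stood at 1174, 894, 1026, 959.9 and 724 units in kidney. Orc4 also overlapped kidney in every tumour type, and the 3 MYC values were close together. limma gave Orc4 a log2 difference from kidney of -0.28 ± 0.25 (SE) in MYC, 0.22 ± 0.22 in VM and 0.30 ± 0.22 in VIM tumours (adjusted p of 0.398, 0.428 and 0.269). By limma voom the Orc4 difference in MYC tumours was 0.19. With Dox, Orc3 stood at 1097, 1059.9, 1099 and 1073 units in MYC-2983 cells, against 813, 804, 839 and 808 without. The Orc3 signal in VM-3055 cells was 938, 884, 948 and 879.8 units with Dox, against 765, 819.7, 697 and 734 without. The Orc3 signal in VIM-3039 cells was 1270.4, 1313, 1361 and 1190.0 units with Dox, against 990.1, 986, 965 and 908 without. Its groups lay apart in each line. Orc3 thus differed by 0.41 ± 0.03 (log2, SE) in MYC-2983 cells, 0.28 ± 0.06 in VM-3055 cells and 0.41 ± 0.04 in VIM-3039 cells (limma adjusted p of 4.0e-10, 2.1e-04 and 1.6e-08).

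The loading factors Cdc6 and Cdt1 differed far more from kidney. Cdc6 (chr11:98769115-98785254) lets ORC take up the Mcm ring. MYC tumours held 214, 159 and 304 units of Cdc6, VM tumours 37.3, 205 and 215 and VIM tumours 60.3, 179 and 27.5. For Cdc6 the 5 kidneys gave 5.19, 0, 1.34, 4.89 and 8.86 units. Every tumour lay above every kidney, where 4 of the 5 libraries lay at or under the floor, so the size of the fold rests on few reads. Against kidney, Cdc6 differed by 5.82 ± 0.97 (log2, SE) in MYC, 4.96 ± 0.85 in VM and 4.15 ± 0.85 in VIM tumours, with limma adjusted p of 4.2e-04, 3.3e-04 and 0.00129. Cdc6 levels in MYC-2983 cells were 1296, 1248, 1238 and 1260.0 units with Dox and 936, 824, 892 and 856 without it. Cdc6 levels in VM-3055 cells were 624, 677, 634 and 681 units with Dox and 279.5, 278, 241 and 251 without it. Cdc6 levels in VIM-3039 cells were 828, 786, 842 and 861 units with Dox and 279, 282, 281 and 304 without it. The Cdc6 groups did not overlap in any line. limma put the Cdc6 change at 0.52 ± 0.04 (log2, SE) in MYC-2983, 1.32 ± 0.07 in VM-3055 cells and 1.53 ± 0.05 in VIM-3039, at adjusted p of 2.0e-10, 4.1e-12 and 5.1e-17. Cdt1 read 993, 1335 and 2175 units in MYC, 375, 774 and 883 in VM and 691, 1104 and 409 in VIM tumours. The Cdt1 values of kidney were 84.8, 101, 42.8, 109 and 91.1 units. The Cdt1 values of each tumour type spanned a wide range, all above kidney. limma gave Cdt1 a log2 difference from kidney of 3.98 ± 0.46 (SE) in MYC, 2.94 ± 0.40 in VM and 3.04 ± 0.40 in VIM tumours (adjusted p of 2.6e-05, 5.2e-05 and 4.6e-05).

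The Mcm ring was higher in all 9 tumour libraries than in the 5 kidneys. MYC tumours held 1397, 1219 and 1792 units of Mcm2, VM tumours 443, 1071 and 1080.1 and VIM tumours 537, 1292 and 343. Kidney levels of Mcm2 were 171, 204, 137, 176 and 258 units. Replicate 1 of the VM tumours was the lowest VM library, and replicate 2 of the VIM tumours the highest VIM library. Against kidney, Mcm2 differed by 2.95 ± 0.46 (log2, SE) in MYC, 2.11 ± 0.40 in VM and 1.74 ± 0.40 in VIM tumours, with limma adjusted p of 2.4e-04, 7.0e-04 and 0.0028. Mcm3 read 1096, 1382 and 1517 units in MYC, 287, 985 and 1101 in VM and 368, 940.0 and 269.8 in VIM tumours. In the kidneys, Mcm3 read 23.9, 41.4, 49.8, 49.7 and 72.4 units. Mcm3 showed the same order of libraries within VM and within VIM tumours. limma gave Mcm3 a log2 difference from kidney of 4.79 ± 0.57 (SE) in MYC, 3.89 ± 0.50 in VM and 3.31 ± 0.50 in VIM tumours (adjusted p of 3.6e-05, 3.5e-05 and 1.4e-04). MYC tumours held 1082, 1616 and 1756 units of Mcm4, VM tumours 465, 1088 and 1033 and VIM tumours 495, 1118 and 310.2. Mcm4 stood at 125, 137, 91.03, 202 and 202 units in kidney. For Mcm4 the lowest tumour, VIM replicate 3, lay above the highest kidney. Against kidney, Mcm4 differed by 3.21 ± 0.48 (log2, SE) in MYC, 2.47 ± 0.42 in VM and 1.93 ± 0.42 in VIM tumours, with limma adjusted p of 1.9e-04, 3.2e-04 and 0.00198.

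Mcm5 read 1535, 1176 and 2025 units in MYC, 352, 1404 and 1655 in VM and 757, 1419.8 and 649.8 in VIM tumours. For Mcm5 the 5 kidneys gave 81.3, 54.02, 58.9, 61.9 and 69.6 units. Mcm5 was nearly even among the kidneys and spread most among VM tumours. limma gave Mcm5 a log2 difference from kidney of 4.56 ± 0.49 (SE) in MYC, 3.84 ± 0.43 in VM and 3.76 ± 0.43 in VIM tumours (adjusted p of 1.6e-05, 1.1e-05 and 1.5e-05). MYC tumours held 2064, 3091 and 3631 units of Mcm6, VM tumours 691, 1904 and 2365 and VIM tumours 1190.2, 2347 and 597. The Mcm6 values of kidney were 269.9, 419, 463, 419 and 407 units. Kidney replicate 1 was the lowest of the kidneys for Mcm6, and VIM replicate 3 the lowest tumour. Against kidney, Mcm6 differed by 2.75 ± 0.50 (log2, SE) in MYC, 1.90 ± 0.44 in VM and 1.60 ± 0.44 in VIM tumours, with limma adjusted p of 7.8e-04, 0.00276 and 0.00844. Mcm7 read 1779.9, 1477 and 2377 units in MYC, 851, 1332 and 1700.4 in VM and 1113, 1662 and 1032 in VIM tumours. Kidney levels of Mcm7 were 192, 212, 209, 238 and 161 units. Of the 6 subunits, Mcm7 had the smallest SE against kidney. limma gave Mcm7 a log2 difference from kidney of 3.18 ± 0.27 (SE) in MYC, 2.63 ± 0.23 in VM and 2.62 ± 0.23 in VIM tumours (adjusted p of 2.7e-06, 1.8e-06 and 2.3e-06).

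Among the firing genes, Mcm10, which changed most with Dox, separated less from kidney. MYC tumours held 334, 478 and 573 units of Mcm10, VM tumours 128, 428 and 635 and VIM tumours 139, 393 and 147. In the kidneys, Mcm10 read 225, 142, 145, 129 and 56.9 units. The MYC tumours lay above all kidneys, while VM and VIM tumours overlapped them. Against kidney, Mcm10 differed by 1.70 ± 0.63 (log2, SE) in MYC, 1.35 ± 0.55 in VM and 0.65 ± 0.55 in VIM tumours, with limma adjusted p of 0.044, 0.0574 and 0.352. Gins3 read 101, 108 and 127 units in MYC, 21.3, 64.9 and 102 in VM and 47.1, 75.2 and 49.6 in VIM tumours. Gins3 stood at 38.1, 43.8, 21.4, 30.9 and 48.1 units in kidney. For Gins3 too, only the MYC tumours lay clear of kidney. limma gave Gins3 a log2 difference from kidney of 1.60 ± 0.57 (SE) in MYC, 0.56 ± 0.49 in VM and 0.66 ± 0.49 in VIM tumours (adjusted p of 0.0369, 0.372 and 0.294).

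Of the clamp loader genes, Rfc2 was among the least changed. Rfc2 (chr5:135058560-135074198) is a small RFC subunit. MYC tumours held 961, 753 and 1058 units of Rfc2, VM tumours 840.2, 781 and 1038 and VIM tumours 864, 901 and 848. For Rfc2 the 5 kidneys gave 758, 727, 791, 681 and 617 units. The VIM tumours lay just above the kidneys, and MYC and VM tumours overlapped them. Against kidney, Rfc2 differed by 0.38 ± 0.16 (log2, SE) in MYC, 0.31 ± 0.14 in VM and 0.29 ± 0.14 in VIM tumours, with limma adjusted p of 0.0804, 0.0945 and 0.111. In MYC-2983 cells Rfc2 read 1271, 1285, 1314 and 1276 units with Dox and 896, 900.1, 941 and 927 units without. VM-3055 cells gave Rfc2 values of 1157, 1093, 1050.1 and 1046 units with Dox and 839, 909, 947 and 926 units without. In VIM-3039 cells Rfc2 read 1046, 1010.0, 1014 and 1035 units with Dox and 746, 716, 709 and 761 units without. In cells the Rfc2 groups did not overlap. For Rfc2 the log2 change with Dox was 0.49 ± 0.03 (SE) in MYC-2983, 0.26 ± 0.05 in VM-3055 cells and 0.49 ± 0.04 in VIM-3039, with limma adjusted p of 1.8e-11, 1.8e-04 and 2.3e-10. Rfc5 read 746, 753 and 1225 units in MYC, 748, 1056 and 1293 in VM and 847, 809.5 and 865 in VIM tumours. The Rfc5 values of kidney were 239, 225, 218, 191 and 197 units. Rfc5, by contrast, was higher in every tumour. limma gave Rfc5 a log2 difference from kidney of 1.98 ± 0.21 (SE) in MYC, 2.23 ± 0.19 in VM and 1.97 ± 0.19 in VIM tumours (adjusted p of 1.7e-05, 1.2e-06 and 3.7e-06). MYC tumours held 549, 310.2 and 446 units of Rfc3, VM tumours 292, 255 and 446 and VIM tumours 399, 341 and 531. Kidney levels of Rfc3 were 89.97, 101, 115, 74.9 and 94.9 units. The same held for Rfc3. Against kidney, Rfc3 differed by 2.25 ± 0.30 (log2, SE) in MYC, 1.76 ± 0.26 in VM and 2.13 ± 0.26 in VIM tumours, with limma adjusted p of 7.5e-05, 1.0e-04 and 2.5e-05.

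Pole had the largest difference from kidney in all 3 tumour types at the pseudocount of 1 used here. With a pseudocount of 0.1, Cdc6, mostly at the floor in kidney, came before it in MYC (6.74 against 6.34) and VM tumours (5.87 against 5.46). MYC tumours held 618, 969 and 1079 units of Pole, VM tumours 165, 566 and 861 and VIM tumours 305, 724 and 176. In the kidneys, Pole read 5.19, 8.76, 12.05, 11.4 and 13.9 units. The lowest tumour, VM replicate 1, lay far above the highest kidney. Against kidney, Pole differed by 6.21 ± 0.65 (log2, SE) in MYC, 5.33 ± 0.56 in VM and 4.98 ± 0.56 in VIM tumours, with limma adjusted p of 1.4e-05, 7.5e-06 and 1.4e-05. SNORA70 and Gm15791 overlap Pole on its strand and Gm15792 on the other. Pold2 read 871, 1364 and 1065 units in MYC, 818, 1226 and 1126 in VM and 768, 1329.6 and 736 in VIM tumours. Pold2 stood at 126, 185, 72.3, 205 and 220.1 units in kidney. Pold2 was higher in each tumour, and its kidney values spread widely. limma gave Pold2 a log2 difference from kidney of 2.76 ± 0.40 (SE) in MYC, 2.78 ± 0.35 in VM and 2.59 ± 0.35 in VIM tumours (adjusted p of 1.4e-04, 2.7e-05 and 5.2e-05). MYC tumours held 817, 649.7 and 743 units of Pold3, VM tumours 481, 673 and 758 and VIM tumours 646, 692 and 696. For Pold3 the 5 kidneys gave 417, 400.0, 466, 414 and 426 units. Pold3 lay above kidney in each tumour by a narrow margin. Against kidney, Pold3 differed by 0.83 ± 0.19 (log2, SE) in MYC, 0.56 ± 0.17 in VM and 0.67 ± 0.17 in VIM tumours, with limma adjusted p of 0.00361, 0.0127 and 0.00438.

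Chaf1b (chr16:93884146-93906360), a subunit of CAF-1, came next to Pole in VIM tumours at the same pseudocount. Chaf1b read 610.1, 463 and 726 units in MYC, 293, 393 and 515 in VM and 412, 521 and 332 in VIM tumours. The Chaf1b values of kidney were 13.8, 17.5, 13.4, 34.2 and 11.4 units. The tumours lay far above kidney, among which replicate 4 was the highest. limma gave Chaf1b a log2 difference from kidney of 5.08 ± 0.41 (SE) in MYC, 4.47 ± 0.36 in VM and 4.56 ± 0.36 in VIM tumours (adjusted p of 2.3e-06, 8.5e-07 and 9.3e-07). With Dox, Chaf1b stood at 1249, 1222, 1279.7 and 1322 units in MYC-2983 cells, against 945, 894, 903 and 893 without. The Chaf1b signal in VM-3055 cells was 1043, 1005, 1029.7 and 1032 units with Dox, against 627, 663, 691 and 687 without. The Chaf1b signal in VIM-3039 cells was 961, 989, 999 and 1019 units with Dox, against 593, 627, 586 and 571 without. In cells its groups lay apart in each line. Chaf1b thus differed by 0.48 ± 0.03 (log2, SE) in MYC-2983 cells, 0.62 ± 0.05 in VM-3055 cells and 0.74 ± 0.04 in VIM-3039 cells (limma adjusted p of 1.2e-10, 1.7e-09 and 5.5e-13). MYC tumours held 984, 849 and 1712 units of Lig1, VM tumours 298, 681 and 759.6 and VIM tumours 456, 808 and 237. Kidney levels of Lig1 were 27.7, 59.9, 19.5, 58.6 and 40.5 units. Lig1 was higher in each tumour than in any kidney, with VIM replicate 3 the lowest tumour. Against kidney, Lig1 differed by 4.81 ± 0.54 (log2, SE) in MYC, 3.79 ± 0.47 in VM and 3.52 ± 0.47 in VIM tumours, with limma adjusted p of 2.1e-05, 2.5e-05 and 5.1e-05. Rpa2 read 589.6, 660.5 and 720.3 units in MYC, 366, 781 and 900.1 in VM and 623, 809.5 and 464 in VIM tumours. In the kidneys, Rpa2 read 189, 189.8, 166, 147 and 161 units. Rpa2 was higher in each tumour. limma gave Rpa2 a log2 difference from kidney of 1.91 ± 0.32 (SE) in MYC, 1.90 ± 0.28 in VM and 1.86 ± 0.28 in VIM tumours (adjusted p of 4.3e-04, 9.9e-05 and 1.3e-04). MYC tumours held 1208, 1426 and 1788 units of Rpa1, VM tumours 808, 1747 and 1139 and VIM tumours 1288, 1741 and 1373. Rpa1 stood at 789, 952, 896, 971 and 929 units in kidney. Rpa1 overlapped kidney in VM tumours alone, through replicate 1. Against kidney, Rpa1 differed by 0.62 ± 0.25 (log2, SE) in MYC, 0.37 ± 0.22 in VM and 0.68 ± 0.22 in VIM tumours, with limma adjusted p of 0.063, 0.177 and 0.0193.

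Of the 32 other replication genes, 22 passed as higher in MYC, 21 in VM and 20 in VIM tumours than in kidney. Of all genes 16.8%, 16.4% and 17.98% did. The medians of the 32 were 1.90, 1.97 and 1.73, and 0 passed as lower in limma, against 16.2%, 21.2% and 19.3% of all genes. All 8 proliferation markers passed as higher in each tumour type, with medians of 5.61, 5.57 and 5.40. Orc1, the ORC subunit outside the 44, read 90.5, 135 and 114 units in MYC, 33.4, 63.9 and 187 in VM and 54.2, 125 and 69.8 in VIM tumours, against 0, 1.46, 0, 1.63 and 3.39 in kidney. Cdc45, which joins the helicase with GINS, read 235, 338 and 371 units in MYC, 101, 341 and 425 in VM and 164, 301 and 110.1 in VIM tumours, against 20.8, 27.7, 42.8, 27.7 and 8.86 in kidney, and was higher in every tumour.

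Between tumour types no member passed in limma. VIM against VM tumours gave 0, against 2.78% of all genes with the fold limit and 3.05% by adjusted p alone; 1 member (Orc2) had an unadjusted p under 0.05, where 17.6% of all genes did, and limma voom gave 0, with 0 at an unadjusted p. VM against MYC tumours gave 0, against 1.97% and 2.05%; 2 members (Pola1 and Pold1) had an unadjusted p under 0.05, where 16.6% of all genes did, and limma voom gave 0, with 6. VIM against MYC tumours gave 0, against 3.91% and 4.45%; 7 members had an unadjusted p under 0.05, where 24.3% of all genes did, and limma voom gave 0, with 10. The members' medians were -0.02, -0.34 and -0.27, and those of all genes 0.07, -0.13 and -0.05. Relative to all genes, the VM median against MYC tumours was -0.21 as scaled by the authors, -0.20 after TMM rescaling and -0.23 after quantile normalization, the last of which moved the median of all genes to 0.00. In the same order, it was -0.22, -0.22 and -0.11 for VIM against MYC and -0.09, -0.11 and -0.05 for VIM against VM tumours. The members' own median moved to -0.13 for VIM against MYC tumours after quantile normalization. For VIM against VM tumours it moved to -0.11 after TMM rescaling. Without replicate 2 of the VIM tumours, 4 members passed as lower in VIM than in MYC tumours: Mcm2 (-1.74), Mcm3 (-1.996), Mcm4 (-1.78) and Rfc1 (-1.07), with limma adjusted p of 0.0203, 0.0462, 0.0287 and 0.0409, named after their values were seen. Of the other replication genes, Dna2 was higher in VIM than in VM tumours (1.33 ± 0.33, log2, SE; limma adjusted p = 0.0486), at 416, 444 and 564 units against 105, 287 and 213.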

How the data were processed

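RNA was sequenced by the authors from TruSeq stranded mRNA libraries, read in pairs, of 24 cell line, 9 tumour and 5 kidney samples. Per the labels, reads were aligned to mm9 with MapSplice, processed with Picard 1.64, SAMtools and UBU, counted with RSEM on UCSC knownGene, and scaled. The deposited signal is thus an RSEM gene estimate that the authors scaled to an upper quartile of 1000; nothing in it is per length. From it, log2(value + 1) was fitted with limma 3.58.1 (R 4.3.3; lmFit, eBayes with trend), two-sided, with Benjamini-Hochberg adjustment over all genes tested: those above 0 in at least 4 cell or 2 tissue libraries. Passing required an absolute log2 change over 1 and an adjusted p under 0.05, or for interactions the adjusted p alone. The tissue groups shared 1 fit. Estimated reads are the value divided by that of 1 read, taken as the most frequent value under 3 units in a library; 94.1% to 95.9% of values under 20 reads then fell within 0.02 of a whole number. Levels per kb were divided by the union of exons. Figures were drawn with matplotlib 3.10.9 (Python 3.11.15).

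Values in every library are given for the member with the largest and the one with the smallest mean Dox change in each role (mean of at least 50 units in cells), every member lower with Dox, the 2 members with the lowest adjusted p in each interaction, the 2 with the largest and the 2 with the smallest change in each tumour type against kidney, members passing between tumour types, and Mcm2 to Mcm7. The members and lists were chosen with earlier results of these data known. Alternatives were pseudocounts of 0.1 and 10, other gene filters, TMM rescaling, quantile normalization, replicate number as a block, wider or narrower fits, separate libraries of mouse 2983, kidneys of 1 label, each library left out, and limma voom on estimated reads. The fits were tested on simulated data in which 200 genes were changed.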

Additional observations from a re-analysis of the deposited data

Results flagged for a closer look

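In 7 of the 182 groups of libraries tested, 1 library stood far from the others by Dixon's test at its 95% limit, which chance passes in about 1 group of 20. In VIM-3039 cells with Dox, replicate 1 read 1281 units of Rfc5 (others 1229 to 1232) and 432 units of Myc (others 359.8 to 371). Replicate 4 of the VIM-3039 cells without Dox read 304 units of Cdc6 (others 279 to 282). Replicate 3 of the VM-3055 cells with Dox read 3105 units of Mcm4 (others 3008 to 3021), and replicate 4 of the MYC-2983 cells without Dox read 3338 units of Mcm6 (others 3188 to 3209). In kidney, replicate 4 read 34.2 units of Chaf1b (others 11.4 to 17.5) and replicate 1 read 269.9 units of Mcm6 (others 407 to 463).

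Dox changes differed between lines by the limma interaction. In VIM-3039 against VM-3055 cells 23 members had a higher change and 0 a lower one, where 22.8% and 10.5% of all genes did, with Lig1 (0.44) and Pole (0.50) at the lowest adjusted p; TMM rescaling cut this to 11 higher and 2 lower. In VM-3055 against MYC-2983 cells 29 differed, 26 higher and 3 lower, where 17.5% and 28.7% of all genes were, with Mcm3 (0.58) and Mcm10 (0.65) first. In VIM-3039 against MYC-2983 cells 38 were higher and 0 lower, where 23.9% and 23.6% of all genes were, with Mcm3 (0.76) and Mcm5 (0.81) first. Each genotype is 1 line, so a difference between lines cannot be assigned to the genotype.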

How the results depend on the processing

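In 1246 comparisons, 66 results were set against each alternative and each left-out library. With a library left out, 643 kept direction and side of the threshold, 1 passed where it had not and 4 reversed; under the alternatives 577 kept both, 11 passed and 10 reversed. Those that passed were Dox changes under the fold limit as reported: Cdt1 and Rfc5 in MYC-2983, Mcm2, Mcm4 and Mcm7 in VM-3055 and Mcm2 in VIM-3039 cells. In VM-3055 cells Mcm2 and Mcm4 passed with TMM rescaling only (1.03 and 1.01). That rescaling moved the median of all genes in this line from -0.26 to -0.06. With each library left out, the counts of members ranged from 3 to 4 (MYC-2983), 13 to 15 (VM-3055) and 24 to 25 (VIM-3039) for Dox. For the interactions they ranged from 19 to 23 (VIM-3039 and VM-3055), 26 to 30 (VM-3055 and MYC-2983) and 37 to 38 (VIM-3039 and MYC-2983). Against kidney they ranged from 32 to 34 (MYC), 31 to 36 (VM) and 33 to 36 (VIM), and for VIM against MYC tumours from 0 to 4, the 4 without VIM_tumour replicate 2. The other tumour pairs and the lines with Dox stayed at 0. Without mouse 2917, MYC tumours have 1 animal, which is assumed to vary like the other groups. TMM rescaling gave 27 members with Dox in VM-3055 cells (9.16% of all genes passed as higher) and 13 in the interaction of VIM-3039 and VM-3055, 11 higher and 2 lower (13.1% and 17.4% of all genes); the cause was not tested.

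Orc4 with Dox in MYC-2983 cells (-0.03) reversed to 0.0845 with TMM rescaling, 0.00353 with quantile normalization and 0.11 by limma voom. Orc3 in MYC tumours against kidney (-0.13) reversed to 0.0921 with KT kidneys only and 0.34 by voom, and Orc4 there (-0.28) to 0.19 by voom. Orc3 in VM tumours (-0.06) reversed to 0.0374 with quantile normalization, 0.16 with KT kidneys only, 0.37 by voom, 0.0258 without VM_tumour replicate 2, 0.0332 without normal_kidney replicate 1 and 0.00662 without normal_kidney replicate 3, and was lowest (-0.154) without VM_tumour replicate 3. Orc3 in VIM tumours (0.14) reversed to -0.19 with B6 kidneys only and -0.106 without VIM_tumour replicate 3, and was highest (0.301) without VIM_tumour replicate 1. The cause was not tested.

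Cell libraries with the same replicate number (VM-3055, VIM-3039) were not treated as pairs, since their mean correlation after removing group means was -0.184 (VM-3055) and 0.015 (VIM-3039) across Dox and 0.058 between the lines with Dox. With the number as a block, 14, 24, 19 and 0 members passed with Dox in VM-3055, in VIM-3039, in their interaction and between the lines. Each genotype was 1 line, tumours were 2 or 3 animals a type, and bulk RNA does not separate cell number from RNA per cell. Depth limits kidney values of Cdc6 and Orc1, most of them at or under 3 reads, and of Pole, at 3 reads in 1 library. Neither protein nor DNA synthesis was measured in the files used here.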
